A study of Mus musculus with 21 samples.

Results

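The genes described here encode subunits of the Polycomb repressive complexes. Members were chosen by symbol, as Ezh1, Ezh2, Eed, Suz12, Jarid2, Ring1, Rnf2, Bmi1, Cbx2 and Cbx7, a rule that uses no measured value. They make up 10 of the 12404 genes with a row in at least 1 of the 3 deposited tables. All 10 had a row in both tables of reprogramming cells, and 9 had one in the table of mouse embryonic fibroblasts (MEFs), where Cbx7 was not listed.

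Polycomb repressive complex 2 (PRC2) methylates lysine 27 of histone H3 with Ezh2 or its paralogue Ezh1 as the catalytic subunit, and Eed and Suz12 are needed for that activity. Polycomb repressive complex 1 (PRC1) attaches ubiquitin to histone H2A through the E3 ligases Ring1 and Rnf2, which pair with a Pcgf protein such as Bmi1, and its Cbx subunits bind the mark that PRC2 writes. In fibroblasts the complexes are known for holding the cell cycle inhibitor locus Cdkn2a and developmental genes silent, and PRC2 has been reported to aid reprogramming to pluripotency.

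RNA was sequenced from 21 mouse libraries, 7 in each of 3 tables. Each combination of constructs and medium was sequenced once. The values are whole numbers that the authors had normalized within each table, so that they carry no sequencing depth and no counting error could be computed. The labels do not say whether libraries came from separate cultures, and a p-value here therefore covers just the scatter among these libraries, which may be technical.

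All cells derived from ICR mouse embryos of day 13.5 and were fibroblasts of passage 2 infected with retroviruses, whose promoters are not given. The labels give 48 h of infection. SKOM cells had in addition received Sox2, Klf4, Oct4 and c-Myc by retrovirus and were harvested on day 5 in medium with vitamin C (Vc+) or without it (Vc-). In each medium the constructs were Tet1CD, Tet1CD+Dmnt1 (the labels' spelling), Tet1CD+shDnmt1, Dnmt1, shDnmt1, shp53+shDnmt1 and Flag+shLuc, the control with a hairpin against luciferase. Tet1CD holds sequence of Tet1, an enzyme that oxidises methylated cytosine, shDnmt1 is a hairpin against the maintenance DNA methyltransferase, and shp53 is a hairpin against Trp53. The MEF libraries carried Tet1-CD, Dnmt1, shDnmt1, shp53, shp53+shDnmt1 or Flag+shLuc. The seventh is labelled 5C Flag+shLuc, and its column header reads X5CDay4. The labels do not say what 5C stands for or from when the day is counted.

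Libraries with Tet1CD held Tet1 at 2503 to 3129 in Vc+ cells, where those without the construct held 41 to 88. In Vc- cells it was 2140 to 2632 with Tet1CD and 11 to 19 without. Tet1 had no row in the MEF table. Trp53 was 157 with shp53 in MEFs, against 1008 in the control. In SKOM cells its fall was smaller, to 621 in Vc+ shp53+shDnmt1 against 1304 in Vc+ shDnmt1. The Vc- values were 453 and 810. The hairpin against Dnmt1 lowered Dnmt1 to 208 in MEF shDnmt1, against 957 in the MEF control. That fall too was smaller in SKOM cells, to 1154 in Vc+ shDnmt1 against 2346 in the Vc+ control. In Vc- cells Dnmt1 was 527 with shDnmt1 against 984 in the control. Vc+ Tet1CD, without the hairpin, had Dnmt1 at 1080. The libraries labelled Dnmt1 held it at about the level of their controls, at 2381 in Vc+ Dnmt1 against 2346 in the Vc+ control and at 975 in MEF Dnmt1 against 957 in the MEF control. All 9 fibroblast markers were listed in MEFs and in Vc+ cells, and 8 of 9 in Vc- cells. Their summed value was 43880 to 49130 with Tet1CD and 30405 to 49381 without it in Vc+ cells, and 37032 to 38383 with it against 32828 to 36661 without it in Vc- cells. Vim made up a large part of these sums. It stood at the highest value of the table, 19681, in every Vc- library, and ran from 13571 to the highest value, 28926, in Vc+ libraries. The sums therefore show little of the other markers. The pluripotency markers Nanog, Zfp42 and Sall4 had no row in any table. Of the 8 pluripotent and epithelial markers, Cdh1 and Epcam were listed in both SKOM tables and Esrp1 in Vc+ cells. The listed ones summed to 161 to 188 with Tet1CD and 359 to 679 without it in Vc+ cells, and to 72 to 112 with it against 132 to 201 without it in Vc- cells. Macrophage and leukocyte markers were higher with Tet1CD in SKOM cells. With 5 of 10 listed in the Vc+ table, their summed value was 2449 to 3250 with Tet1CD and 338 to 493 without it. With 4 of 10 listed in the Vc- table, it was 633 to 735 with Tet1CD and 302 to 400 without it. With 6 of 10 listed in MEFs, it was 1421 with Tet1-CD and 4662 in 5C, against 239 in the control. In the other MEF libraries it was 974 with Dnmt1, 1008 with shDnmt1, 536 with shp53 and 106 with shp53+shDnmt1, so the MEF control was low. Adgre1, Tyrobp, Fcer1g and Cd14 had no row in any table, and in every library at most 1 listed marker was at 0.

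The promoters of Ezh2 and Suz12 are shown because these genes of the PRC2 core fell with Tet1CD and their windows are those that hold a word of the E2F type, the letters bound by regulators of replication genes. The sequences come from RefSeq (build GRCm38.p6) and run 5′ to 3′ on the strand of the gene, and the capitals mark the word. Ezh2 is on the minus strand at chr6:47595001-47595280, and Suz12 on the plus strand at chr11:79992856-79993135.
Ezh2: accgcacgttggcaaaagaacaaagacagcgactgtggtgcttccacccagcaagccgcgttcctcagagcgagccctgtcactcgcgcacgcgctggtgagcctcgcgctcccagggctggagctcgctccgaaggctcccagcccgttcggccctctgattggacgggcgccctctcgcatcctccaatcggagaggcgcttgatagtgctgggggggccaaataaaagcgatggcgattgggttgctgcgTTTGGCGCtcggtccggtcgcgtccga
Suz12: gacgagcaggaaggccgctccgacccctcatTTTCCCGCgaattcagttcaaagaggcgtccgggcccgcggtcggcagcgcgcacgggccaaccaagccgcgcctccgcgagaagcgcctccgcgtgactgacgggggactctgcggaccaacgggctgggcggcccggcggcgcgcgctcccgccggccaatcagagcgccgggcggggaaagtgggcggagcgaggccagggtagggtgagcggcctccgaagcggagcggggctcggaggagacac

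The words searched were TTTCCCGC, TTTGGCGC, TTTCGCGC and TTTGCCGC on both strands, and each holds at least 1 CG pair. A word may overlap the reverse complement of another by the letters GCGC. The windows ran from 250 bases before the start site to 50 after it. There were 10 windows for 9 members, with none for Cbx2, and 2 of them held a word. In Ezh2 it was TTTGGCGC, beginning at base 4 of the transcript, and in Suz12 TTTCCCGC, beginning at -219. Of the other members that fell with Tet1CD, Eed, Jarid2 and Cbx7 had no word in their windows. A link between the word and the fall was not tested. Of all 32851 mouse windows 2.26% held a word, and of the 10320 windows with at least as many CG pairs as the poorest member window 4.95% did. The member windows had 17 to 41 CG pairs (median 27), against a median of 7 over all windows. A word in a window is a description of its letters and does not show a bound site.

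Ezh2 was the one member that passed the test for Tet1CD both in the model over all SKOM libraries and in each medium by itself. In a single medium, however, the call was lost without 2 of the 7 Vc+ libraries and without 4 of the 7 Vc- libraries. Over the fits with a library left out, 1049 to 2943 of all genes fell in Vc+ cells and 2 to 1202 in Vc- cells. The losses were not separate checks. In such a fit, leaving out either library of a pair that differs only by Tet1CD gives the same estimate. The lost pairs were Dnmt1 with Tet1CD+Dmnt1 in both media, and shDnmt1 with Tet1CD+shDnmt1 in Vc- cells. This catalytic subunit (chr6:47530274-47595030, mm10) had 318 in Vc+ Tet1CD, 347 in Vc+ Tet1CD+Dmnt1 and 579 in Vc+ Tet1CD+shDnmt1. Without Tet1CD it had 754 in Vc+ Flag+shLuc, 834 in Vc+ Dnmt1, 760 in Vc+ shDnmt1 and 988 in Vc+ shp53+shDnmt1. The groups did not overlap, and the library with shp53 was the highest. Without vitamin C, Ezh2 had 327, 231 and 260 in Tet1CD, Tet1CD+Dmnt1 and Tet1CD+shDnmt1, against 395, 392, 389 and 534 in Flag+shLuc, Dnmt1, shDnmt1 and shp53+shDnmt1. Those groups did not overlap either, and shp53+shDnmt1 was again the highest.

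Polycomb genes of both complexes fell with Tet1CD in SKOM cells. In a model over the 14 libraries (limma on log2 of the value plus 5, terms for table and each construct), 6 of the 10 members fell, 0 rose and 4 did not pass an adjusted p of 0.05. Of all 10711 genes tested 24.9% fell and 20.3% rose, so Tet1CD moved a large share of the transcriptome. The members' median log2 fold change was -0.28, against -0.04 over all genes. At an unadjusted p under 0.05 there were 7 members, all lower with Tet1CD, and the share of all genes at that p is not given here. Ezh2 ranked 286 from the lowest of the 10711 fold changes.

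**Figure D1:**
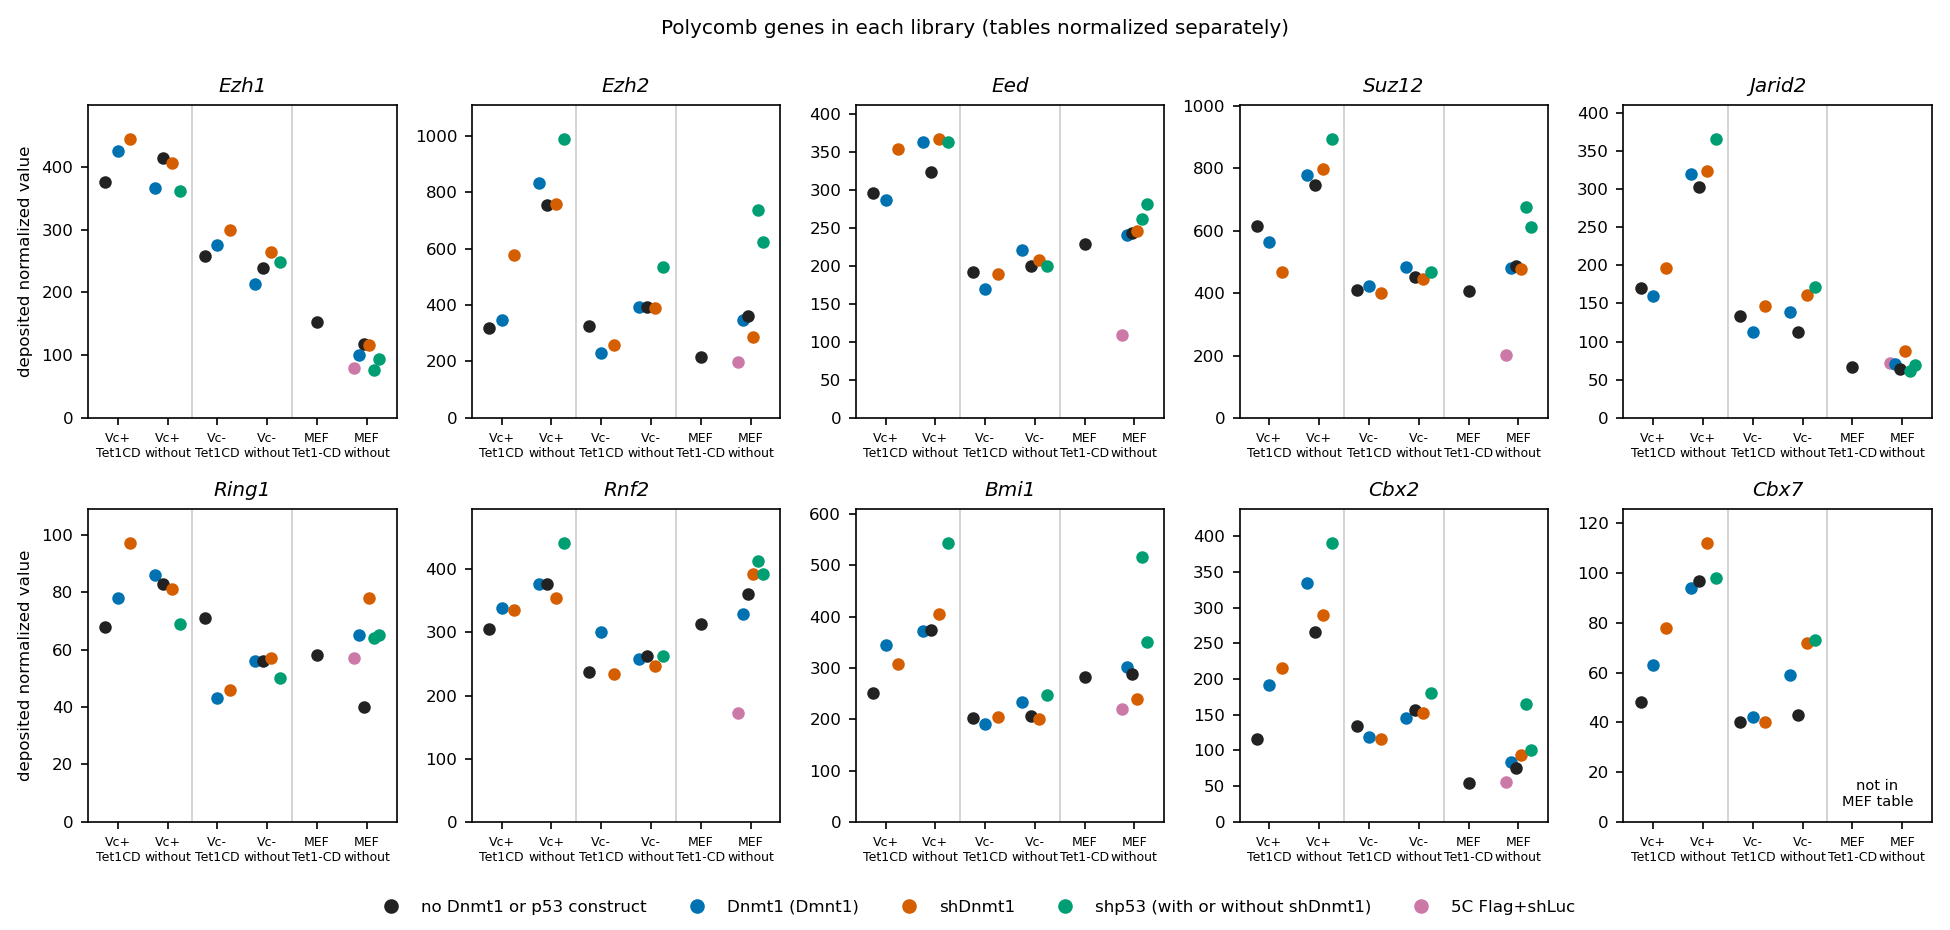
Deposited normalized value (y axis, linear from 0, a scale of its own for each gene) of the 10 Polycomb genes in each library. Each point is 1 library, coloured by its other construct, with the libraries that carry Tet1CD left of those without it in each table. In the Vc+ table Ezh2 lies between 318 and 579 with Tet1CD and between 754 and 988 without it.

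Within PRC2, Ezh2 fell by 0.74 ± 0.14 on the log2 scale (SE, 6 libraries with Tet1CD and 8 without, adjusted p = 0.00159). Its paralogue Ezh1 (chr11:101191115-101226463), which serves mostly in cells that divide little, went the other way, with 376 to 444 in Vc+ cells with Tet1CD against 362 to 414 without it, and 258 to 300 against 213 to 265 in Vc- cells. These ranges overlapped, and the log2 fold change of 0.14 ± 0.07 did not pass (adjusted p = 0.0944). The ratio of the Ezh2 value to the Ezh1 value was 0.817 to 1.30 in Vc+ libraries with Tet1CD, against 1.82 to 2.73 in those without. In Vc- libraries it was 0.837 to 1.27 with Tet1CD, against 1.47 to 2.15 without. The ratio separated the libraries with Tet1CD from the others in both tables; its size also depends on the lengths of the transcripts.

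Suz12 (chr11:79993106-80034123), the subunit that holds the PRC2 core together, had 616, 564 and 469 in Vc+ Tet1CD, Tet1CD+Dmnt1 and Tet1CD+shDnmt1, against 748, 778, 797 and 893 in Flag+shLuc, Dnmt1, shDnmt1 and shp53+shDnmt1. In the same order it had 409, 424 and 400 with Tet1CD in Vc- cells, against 452, 485, 445 and 469 without it. The groups did not overlap in either table, and Suz12 fell by 0.33 ± 0.09 (adjusted p = 0.00944). Eed (chr7:89954656-89980983), which binds the methylated histone tail and stimulates the enzyme, had 286 to 353 with Tet1CD and 323 to 366 without it in Vc+ cells, and 169 to 192 with it against 199 to 221 without it in Vc- cells. It fell by 0.18 ± 0.07 (adjusted p = 0.042), the smallest change among the 6. With 1 library left out, that call held only without Vc- shDnmt1, Vc- Tet1CD, Vc+ Flag+shLuc or Vc+ Tet1CD+shDnmt1. It was lost in the 10 other cases, with an adjusted p of up to 0.111 (without Vc- Dnmt1).

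Jarid2, an accessory subunit that helps to bring PRC2 to chromatin, had 170, 160 and 196 in Vc+ Tet1CD, Tet1CD+Dmnt1 and Tet1CD+shDnmt1. Without Tet1CD it had 302, 320, 323 and 365 in Vc+ Flag+shLuc, Dnmt1, shDnmt1 and shp53+shDnmt1. These groups lay far apart, whereas in Vc- cells 113 to 147 with Tet1CD overlapped 112 to 171 without it. Over both tables Jarid2 fell by 0.45 ± 0.14 (adjusted p = 0.0192), and the call was lost without Vc+ Dnmt1, Vc+ Tet1CD+Dmnt1, Vc+ Flag+shLuc or Vc+ Tet1CD+shDnmt1 (adjusted p of up to 0.056). The row of Jarid2 names a processed transcript of 2101 bases of genome (chr13:44729474-44731574), 1.1% of the span of the gene, and the tables do not say whether its value is a sum over the gene.

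Within PRC1 the chromodomain subunits fell and the ligases did not pass the test. Cbx2 (chr11:119023725-119028038) had 116, 192 and 215 in Vc+ Tet1CD, Tet1CD+Dmnt1 and Tet1CD+shDnmt1, against 266, 335, 290 and 390 in Flag+shLuc, Dnmt1, shDnmt1 and shp53+shDnmt1. In Vc- cells Cbx2 had 134, 119 and 116 with Tet1CD, against 156, 146, 152 and 181 without it in the same order. No library with Tet1CD reached the level of one without it in the same table, and Cbx2 fell by 0.54 ± 0.14 (adjusted p = 0.00954). Cbx7 (chr15:79915807-79932652), the Cbx protein known in mouse embryonic stem cells, had 48, 63 and 78 with Tet1CD in Vc+ cells, against 97, 94, 112 and 98 without it. In Vc- cells it had 40, 42 and 40 with Tet1CD, against 43, 59, 72 and 73 without it. The Vc- control, at 43, lay just above the libraries with Tet1CD. Cbx7 fell by 0.55 ± 0.11 (adjusted p = 0.00242), as a gene of low values.

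Ring1 (chr17:34020792-34024680) and Rnf2 (chr1:151458004-151476162), the ubiquitin ligases, had log2 fold changes of -0.08 ± 0.12 (adjusted p = 0.632) and -0.09 ± 0.07 (adjusted p = 0.353). Ring1 had 68 to 97 in Vc+ cells with Tet1CD against 69 to 86 without it, and 43 to 71 against 50 to 57 in Vc- cells, so that the libraries with Tet1CD spanned those without it. Rnf2 was 305 to 338 with Tet1CD and 354 to 441 without it in Vc+ cells, with no overlap, but 234 to 301 with it and 247 to 262 without it in Vc- cells. Bmi1 (chr2:18677018-18686629), the Pcgf partner of the ligases, had 252 to 344 with Tet1CD and 373 to 543 without it in Vc+ cells. In Vc- cells it had 191 to 205 with Tet1CD, against 201 to 247 without it. Its log2 fold change was -0.23 ± 0.09 (adjusted p = 0.062).

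The rows of Cbx2, Rnf2 and Cbx7 name transcripts that cover 51.9%, 42.3% and 30.5% of the span of their genes, with the same doubt about what was summed as for Jarid2. In bulk RNA, fewer cells of a type and less RNA per cell cannot be told apart. The macrophage markers rose beside these changes, with all 4 that were tested higher in the model over 14 libraries (median log2 fold change 1.77). Of the fibroblast markers 5 of 8 rose and 0 fell (median 0.31), the collagen genes Col3a1 by 0.82 ± 0.25 and Col1a2 by 0.82 ± 0.16 among them. Both epithelial markers tested fell, with log2 fold changes of -1.06 ± 0.16 for the cadherin gene Cdh1 and -1.01 ± 0.27 for the adhesion gene Epcam. The part of these markers in the result was not tested. Genes of DNA replication fell, 28 of 29 with 0 that rose (median -0.67), such as the replication initiation factor Mcm10 by 0.88 ± 0.14 and the S phase cyclin Ccna2 by 0.83 ± 0.12. Their summed value was 12848 to 14423 with Tet1CD and 23561 to 28274 without it in Vc+ cells, and 9268 to 10912 with it against 12134 to 16022 without it in Vc- cells. Their part in the change of the Polycomb genes was not tested.

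More members passed in the Vc+ table than in the Vc- table, which is not a test of the difference. Fitted by itself, the Vc+ table had 6 members that fell and 0 that rose, where 23.6% of all genes fell and 20.7% rose. Ezh2 fell by 0.96 ± 0.18 (adjusted p = 0.00817), Jarid2 by 0.83 ± 0.10 (adjusted p = 0.00185) and Cbx2 by 0.79 ± 0.15 (adjusted p = 0.0084). Cbx7 fell by 0.66 ± 0.15 (adjusted p = 0.0136), Suz12 by 0.50 ± 0.11 (adjusted p = 0.0159) and Bmi1 by 0.36 ± 0.11 (adjusted p = 0.0459). Without Vc+ Dnmt1 or Vc+ Tet1CD+Dmnt1, 1 member passed, which was Jarid2, and Ezh2 had an adjusted p of up to 0.0584. Without Vc+ Flag+shLuc or Vc+ Tet1CD the calls of Bmi1 and Cbx7 were lost, and without Vc+ shDnmt1 or Vc+ Tet1CD+shDnmt1 that of Bmi1. The calls over all genes moved in these fits too. Over the 7 Vc+ fits with a library left out, 1049 to 2943 genes fell and 1146 to 2537 rose, against 2836 and 2483 in the full fit. In the Vc- libraries 1 member fell, Ezh2 by 0.53 ± 0.10 (adjusted p = 0.0213), and 0 rose, where 7.38% of all genes fell and 7.25% rose. The Ezh2 call, and with it every call of a member in that table, was lost without Vc- Dnmt1, Tet1CD+Dmnt1, shDnmt1 or Tet1CD+shDnmt1 (adjusted p of up to 0.192). Without Vc- Flag+shLuc or Vc- Tet1CD 3 members fell, which were Ezh2, Cbx2 and Cbx7. Here too the calls over all genes moved. Over the 7 Vc- fits with a library left out, 2 to 1202 genes fell and 3 to 1158 rose, against 791 and 777 in the full fit. At an unadjusted p under 0.05 the Vc- fit over all 7 libraries had 5 members. Ezh2, Suz12, Cbx2 and Cbx7 were lower with Tet1CD and Ezh1 was higher. The share of all genes at that p is not given here, so the count has no background. Each of these fits had 7 libraries and 2 residual degrees of freedom. The losses come in pairs because leaving out either library of a pair that differs only by Tet1CD gives the same estimate.

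**Figure D2:**
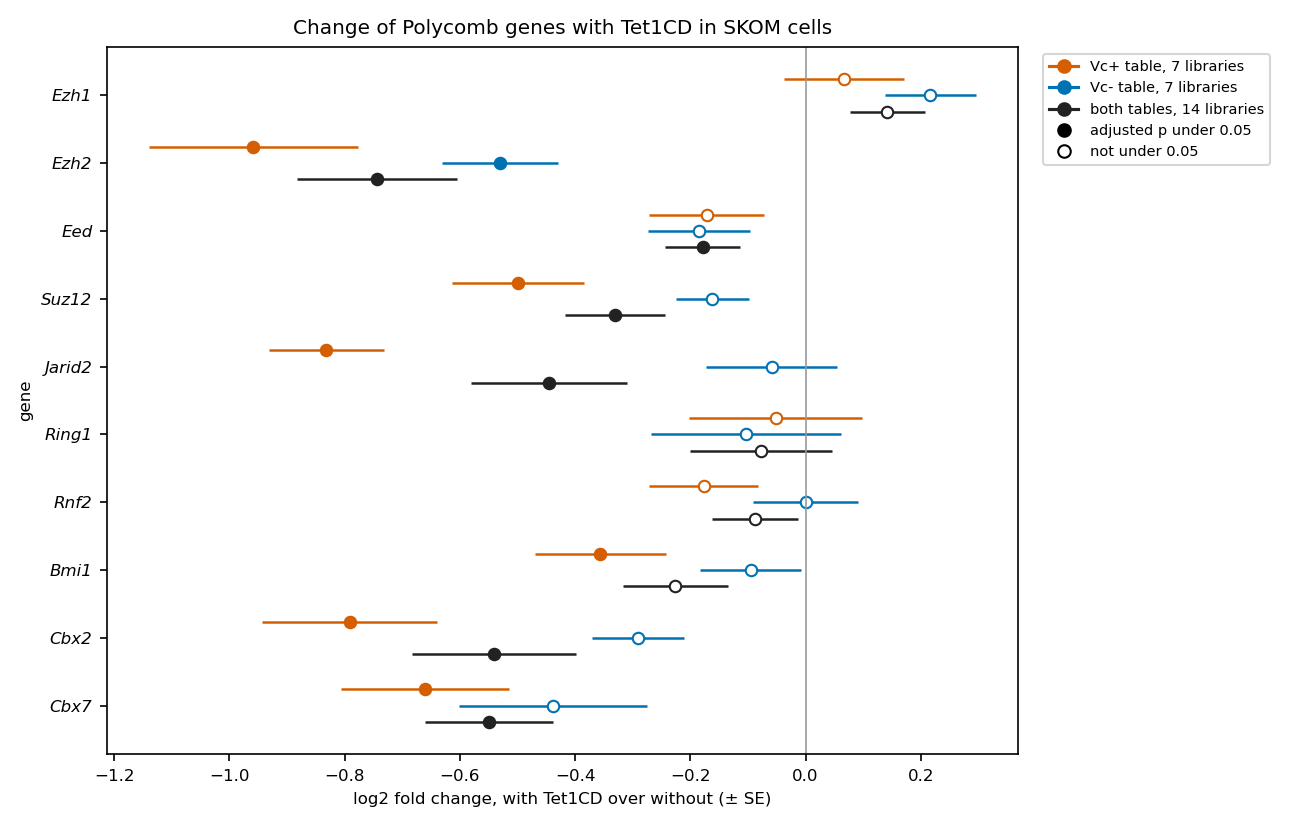
Log2 fold change of each Polycomb gene (rows), libraries with Tet1CD over libraries without it, with its SE as the bar, in the Vc+ table, the Vc- table and both together. Filled points passed an adjusted p of 0.05. Ezh2 passed in all 3 fits, and Jarid2 lies at -0.83 in the Vc+ table and -0.06 in the Vc- table.

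Without a model, all libraries with Tet1CD lay below all without it for 7 members in the Vc+ table (Ezh2, Suz12, Jarid2, Rnf2, Bmi1, Cbx2 and Cbx7), where 31.3% of all genes did so. The same held for 5 members in the Vc- table (Ezh2, Eed, Suz12, Cbx2 and Cbx7), where 15.7% of all genes did so. No member had all libraries with Tet1CD above all others in either table, against 25% and 15.3% of all genes.

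The difference between the media was tested with a term for the product of table and construct. Jarid2 passed, with a Tet1CD effect that was 0.77 ± 0.16 lower on the log2 scale in Vc+ than in Vc- cells (difference -0.77, adjusted p = 0.0121), and 8.28% of all genes had a lower effect and 8.57% a higher one in Vc+ cells at that threshold. The call was lost without Vc+ Dnmt1 or Vc+ Tet1CD+Dmnt1 (adjusted p of up to 0.0561), a pair that gives the same estimate whichever is left out. The other 9 members did not pass. Cbx2 had a difference of -0.50 ± 0.18 (adjusted p = 0.0906), Ezh2 one of -0.43 ± 0.23 (adjusted p = 0.234) and Suz12 one of -0.34 ± 0.13 (adjusted p = 0.12). Without Vc+ shDnmt1 or Vc+ Tet1CD+shDnmt1, Ezh2 and Cbx2 passed as well, at -0.71 and -0.68. Over the fits with a library left out, 311 to 1173 of all genes had a lower effect in Vc+ cells, against 887 in the full fit. In the Vc+ library Tet1CD+shDnmt1 Ezh2 was 579, above the 318 and 347 of the other libraries with Tet1CD. The macrophage markers differed between the media too, with 3 of 4 more raised in Vc+ cells. So did 16 of 29 replication genes, each with a lower effect in Vc+ cells (list median -0.47), 3 of 8 fibroblast markers with a higher one (list median 0.47) and Epcam with a difference of -1.43 ± 0.20. Their part was not tested.

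Other genes of the Polycomb system were taken from lists given by role. Of the other PRC2 genes 7 of 10 were tested, of which 3 fell and 1 rose, where 24.9% of all genes fell and 20.3% rose. The histone chaperones Rbbp4 and Rbbp7, which also belong to other chromatin complexes, fell by 0.62 ± 0.08 and 0.51 ± 0.07. Mtf2, a Polycomb-like protein that recruits PRC2, fell by 0.30 ± 0.08, and Phf1, its relative, rose by 0.31 ± 0.10. The list's median was -0.10, against -0.04 for all genes. In the Vc+ table alone another relative, Phf19, had a row and fell by 0.96 ± 0.19 (adjusted p = 0.00999).

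Of the other PRC1 genes 22 of 23 were tested, of which 7 fell and 2 rose (median -0.18), against the same 24.9% and 20.3% of all genes. Pcgf2 and Pcgf6, relatives of Bmi1, fell by 0.54 ± 0.14 and 0.49 ± 0.13, and Cbx8 fell by 0.53 ± 0.16. Scmh1, a homologue of the fly Polycomb protein Scm, rose by 0.77 ± 0.14. In the Vc+ table alone 10 of 22 fell and 1 rose, where 23.6% of all genes fell and 20.7% rose, and in the Vc- libraries 0 fell and 1 rose, where 7.38% of all genes fell. Of 11 genes for the removal of Polycomb marks 5 fell and 1 rose over the 14 libraries (median -0.17), against 24.9% and 20.3% of all genes. In the Vc+ table alone 5 fell and 0 rose, and in the Vc- libraries 0 fell and 0 rose. Asxl1 and Bap1, the core of the complex that takes ubiquitin off histone H2A, fell by 0.48 ± 0.10 and 0.36 ± 0.08.

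Known Polycomb targets moved both ways. Of 31 listed by symbol 14 were tested, of which 6 rose and 2 fell (median 0.08). Cdkn2a itself did not pass, with a log2 fold change of 0.08 ± 0.16 (adjusted p = 0.714). It had 144 to 226 in Vc+ cells with Tet1CD against 117 to 178 without it, and 69 to 84 against 93 to 131 in Vc- cells, and its Tet1CD effect differed between the media by 0.87 ± 0.20 (Vc+ minus Vc-, adjusted p = 0.0204). Cdkn2b, the cell cycle inhibitor beside it, rose by 1.03 ± 0.17, and the transcription factor genes Gata2 and Hoxc10 rose by 0.52 ± 0.10 and 0.50 ± 0.10. Foxd1 fell by 1.02 ± 0.22. The shares that rose and fell over all genes were 20.3% and 24.9%.

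**Figure D3:**
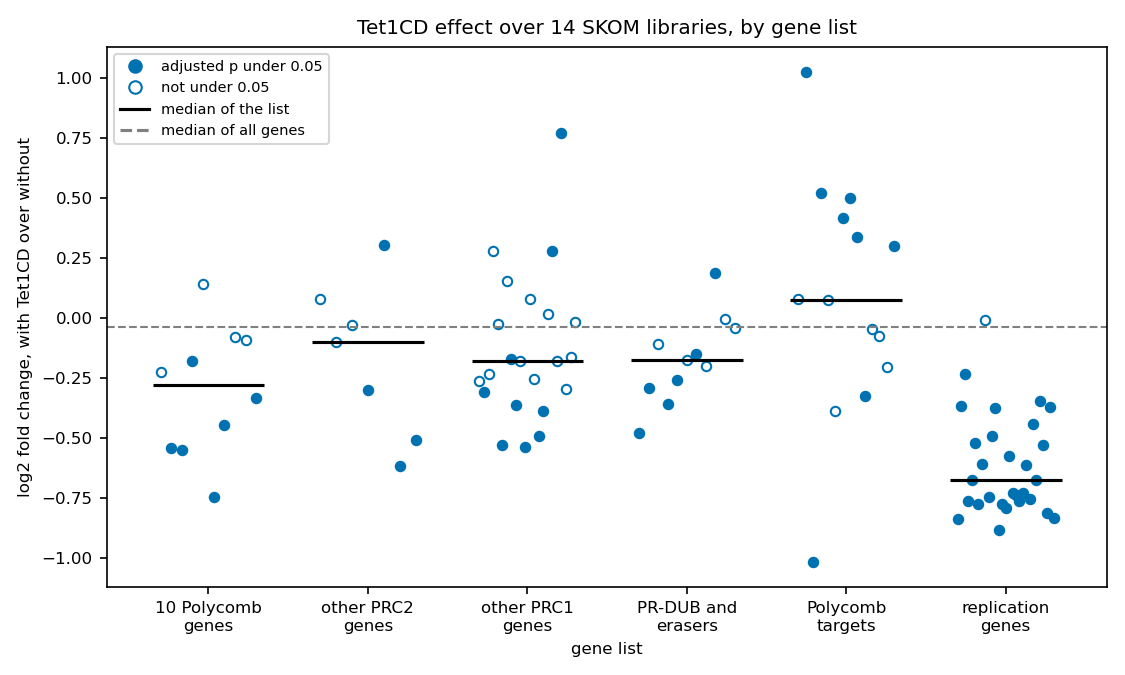
Log2 fold change with Tet1CD over without it in the 14 SKOM libraries (y axis) for the 10 Polycomb genes and 5 lists of related genes (x axis). Each point is a gene, filled where the adjusted p was under 0.05, and the horizontal bars are list medians, from -0.67 for replication genes to 0.08 for Polycomb targets. The dashed line at -0.04 is the median of all genes.

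In SKOM cells the Dnmt1 constructs moved no member past an adjusted p of 0.05 in limma. For shDnmt1 0 of 10 members passed in limma, 1 had an unadjusted p under 0.05, and 0% of all genes rose and 0.0187% fell. That member was Cbx7, with a log2 fold change of 0.38 ± 0.14 (unadjusted p = 0.0158, adjusted p = 1). It had 112 in Vc+ shDnmt1 against 97 in the Vc+ control and 72 in Vc- shDnmt1 against 43 in the Vc- control, so the Vc- control was low. For the construct labelled Dnmt1 0 of 10 passed and 0 had an unadjusted p under 0.05, with changes of -0.11 (Ring1) to 0.20 (Cbx7), and 0% of all genes were called in either direction. As above, Dnmt1 itself was near the control level in the libraries with that label.

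Ezh2 had higher values with the hairpin against p53 in MEFs and in SKOM cells of both media. In SKOM cells it was present only together with shDnmt1. Ezh2 was 988 in Vc+ shp53+shDnmt1 against 760 in Vc+ shDnmt1, and 534 in Vc- shp53+shDnmt1 against 389 in Vc- shDnmt1. The log2 ratios of these pairs were 0.38 and 0.45, and the model over 14 libraries gave 0.28 ± 0.22, which did not pass (adjusted p = 0.647). In limma 0 of 10 members passed for shp53, 1 had an unadjusted p under 0.05, and 0% of all genes rose and 0.00934% fell. That member was Bmi1, with 543 against 405 in the Vc+ pair and 247 against 201 in the Vc- pair and a log2 fold change of 0.33 ± 0.15 (unadjusted p = 0.0407, adjusted p = 0.463). Bmi1 is known for repressing the Cdkn2a locus, whose product p19Arf acts through p53.

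In MEFs each combination had 1 library, so these differences have no replicate check and a member was counted where 2 libraries differed by at least 1.5-fold (log2 ratio of 0.58). Ezh2 was 736 in MEF shp53 against 362 in MEF Flag+shLuc, a log2 ratio of 1.01. In a second pair with no library in common, chosen after seeing the data, it was 625 in MEF shp53+shDnmt1 against 287 in MEF shDnmt1, a log2 ratio of 1.11. Ezh2 was the only member past the fold in both pairs, where 6.28% of all genes were higher and 6.47% lower in both. In the second pair alone Ezh2 was the only member past the fold, where 10.3% of all genes were higher and 10.9% lower. Cbx2 was 165 in shp53 against 76 in the control (log2 ratio 1.07) but 100 in shp53+shDnmt1 against 93 in shDnmt1 (0.10), so the pairs differed. Between MEF shp53+shDnmt1 and MEF shp53 themselves, Cbx2 (100 against 165) was the only member lower by at least 1.5-fold, where 4.26% of all genes were lower and 5.35% higher by that fold.

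Bmi1 was 516 in MEF shp53 against 289 in the control and 351 in shp53+shDnmt1 against 240 in shDnmt1, log2 ratios of 0.83 and 0.54, of which the first was past the fold. Suz12 had ratios of 0.47 and 0.36, with 675 against 487 and 612 against 476. Ezh1 went the other way in both pairs, with 77 in shp53 against 118 in the control and 94 in shp53+shDnmt1 against 116 in shDnmt1. In the first pair 4 of 9 members were higher (Ezh2, Cbx2, Bmi1 and Ring1) and 1 lower (Ezh1), against 11% and 11.6% of all genes. The ratio of the Ezh2 value to the Ezh1 value was 9.56 in MEF shp53 and 6.65 in MEF shp53+shDnmt1, against 3.07 in the control. The summed value of replication genes was 22984 in MEF shp53 and 20088 in shp53+shDnmt1, against 12229 in the control and 9242 in shDnmt1, and their part was not tested.

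**Figure D4:**
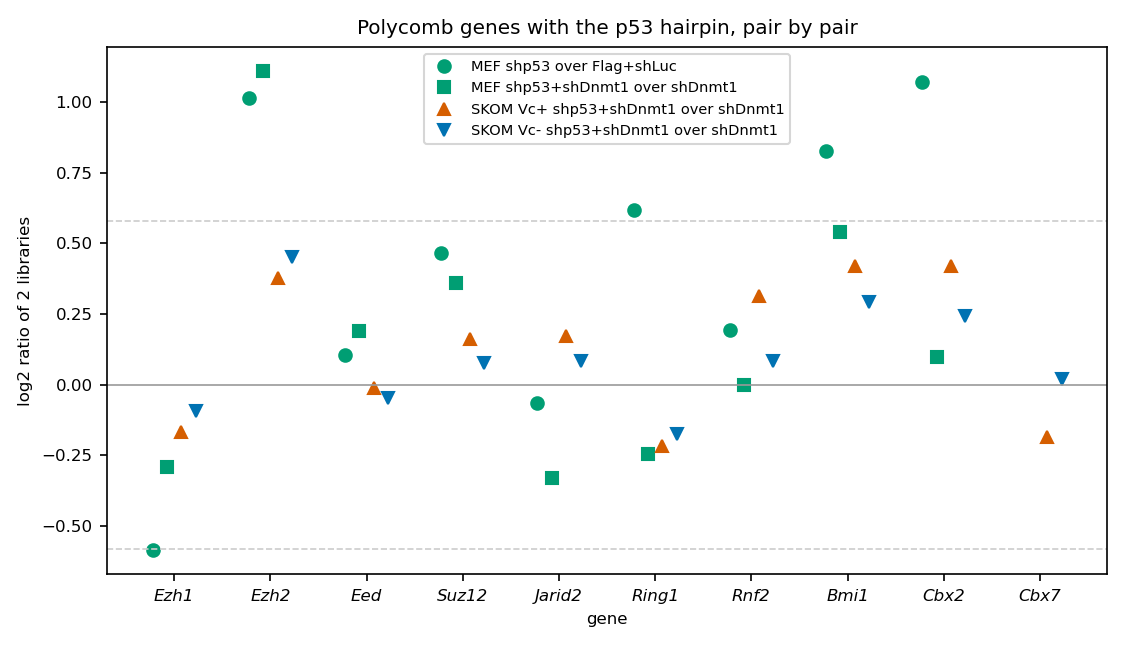
Log2 ratio (y axis) of 2 libraries that differ by the p53 hairpin, for each Polycomb gene (x axis). There are 4 pairs, with no library in common, and the dashed lines mark 1.5-fold. Ezh2 is above 0 in all 4, at 1.01 and 1.11 in MEFs and 0.38 and 0.45 in SKOM cells.

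With Tet1-CD in MEFs, Ezh2 was 215 against 362 in the control, a log2 ratio of -0.74 in 1 library each. It was the only one of 9 members past the fold, where 7.34% of all genes were lower and 6.23% higher. The other members had ratios between -0.43 (Cbx2, 55 against 76) and 0.49 (Ring1, 58 against 40). The summed value of replication genes was 7148 in this library against 12229 in the control, and that of the macrophage markers was 1421 against 239, where MEF Dnmt1 and MEF shDnmt1, without Tet1-CD, had 974 and 1008. Their part was not tested.

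Ring1 was past the fold with Dnmt1 (65 against 40, log2 ratio 0.64), shDnmt1 (78 against 40, 0.88), shp53 (64 against 40, 0.62) and shp53+shDnmt1 (65 against 40, 0.64). The control at 40 was the lowest of the 7 MEF libraries for this gene and is shared by all these ratios. Set against MEF Dnmt1 instead, the ratio of MEF shp53 for Ring1 was -0.02. With Dnmt1 1.47% of all genes were higher and 1.6% lower, with shDnmt1 2.7% were higher and 3.24% lower, and Ring1 was the only member counted with either. With shp53+shDnmt1 2 members were higher than in the control, Ring1 and Ezh2, where 8.48% of all genes were higher and 9.18% lower.

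The library labelled 5C, with day 4 in its column header, stood apart, with 38.1% of all genes lower and 30% higher than in the control. In it 4 of 9 members were lower. Suz12 was 202 in 5C against 487 in the control (log2 ratio -1.25), Eed 109 against 243 (-1.12), Rnf2 172 against 361 (-1.05) and Ezh2 199 against 362 (-0.85). The replication genes summed to 6147 in 5C against 12229 in the control, and the macrophage markers to 4662 against 239. Their part was not tested.

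Levels across tables can only be described, since the tables were normalized separately. Ratios of libraries with the same constructs were centred on the median of all genes of the pair, and a member was counted where all pairs went one way with a median of at least 2-fold. Ezh1, Jarid2 and Cbx2 were higher in SKOM cells than in MEFs in both media, 3 of the 9 members listed in MEFs. Of all genes 6.72% were higher and 10.8% lower by that rule in Vc+ cells, and 6.02% were higher and 7.46% lower in Vc- cells. The median log2 ratio of Ezh1 was 1.47 (5 pairs, 1.03 to 1.60) in Vc+ cells and 1.32 (1.02 to 1.65) in Vc- cells. That of Jarid2 was 1.79 (1.05 to 2.03) and 1.19 (1.03 to 1.55), and that of Cbx2 was 1.44 (lowest pair 0.78) and 1.12 (lowest pair 0.95), for Vc+ and then Vc- cells. Both sets of ratios share the 5 MEF libraries.

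Ezh2 was above 0 in all 5 pairs of each medium, with medians of 0.75 in Vc+ cells and 0.44 in Vc- cells, below the fold. Rnf2 was below 0 in all pairs, with medians of -0.24 in Vc+ cells and -0.18 in Vc- cells. Between the media no member met the rule, where 0.392% of all genes were higher and 0.215% lower in Vc+ cells. Jarid2 was higher in Vc+ than in Vc- cells in the 4 pairs without Tet1CD (log2 ratios of 0.42 to 0.82) and lower in the 3 with it (-0.18 to -0.04). Eed was higher in 7 of 7 pairs, with a median of 0.22, and Rnf2 in 1 of 7, with a median of -0.05.

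**Figure D5:**
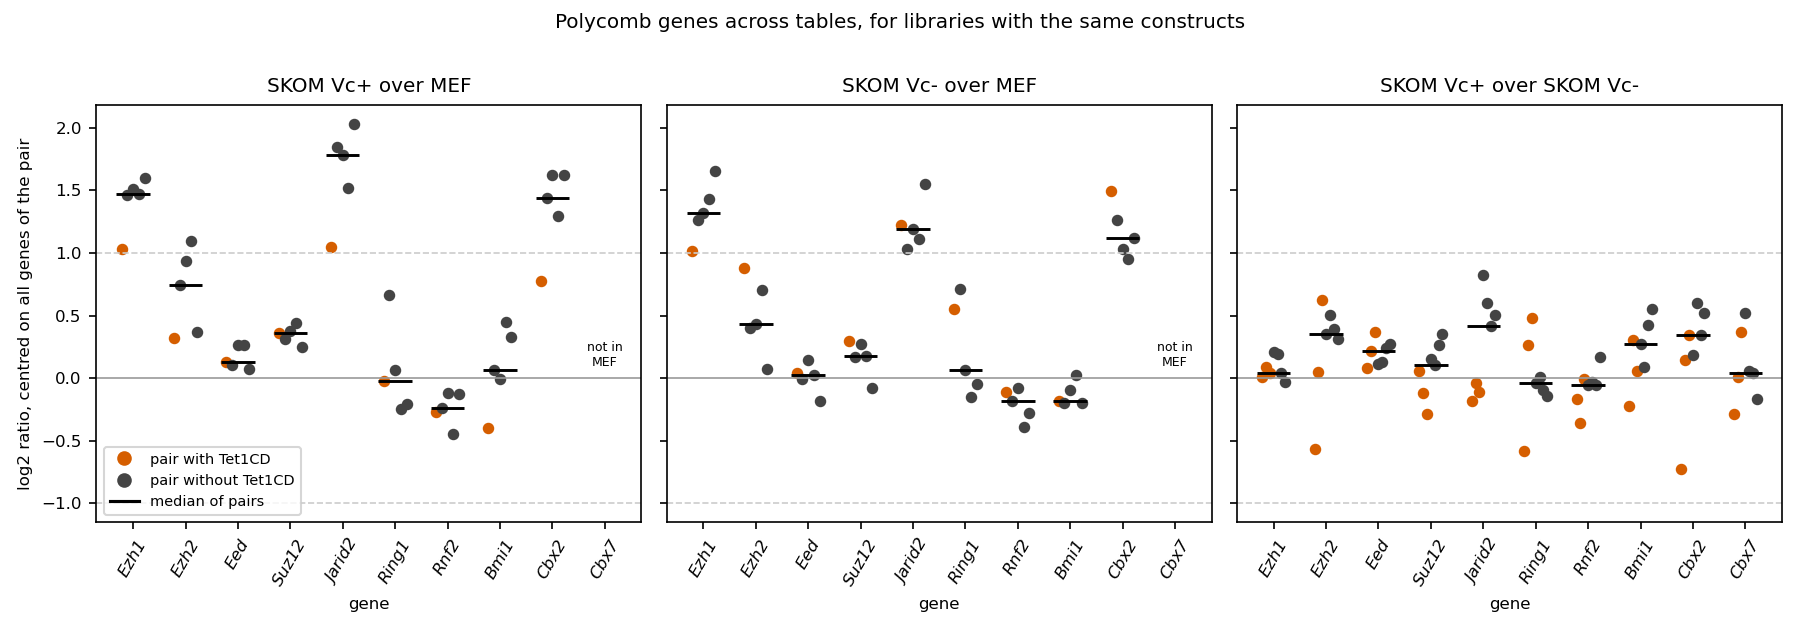
Log2 ratio of 2 libraries with the same constructs, centred on the median of all genes of the pair (y axis), for each Polycomb gene (x axis) in SKOM Vc+ over MEF, SKOM Vc- over MEF and SKOM Vc+ over SKOM Vc-. Points are pairs, with and without Tet1CD, bars are medians and dashed lines mark 2-fold. Ezh1, Jarid2 and Cbx2 have medians above 1 in both SKOM panels.

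Among the members themselves, the levels of Ezh2 and Cbx2 went together most closely over the 14 SKOM libraries, with a Pearson correlation of 0.93 after centring in each table. Ezh2 correlated at 0.85 with Jarid2 and with Cbx7, at 0.83 with Eed and at 0.79 with Bmi1. The lowest value was -0.61, between Ezh1 and Suz12. Ezh1 was negatively correlated with each of the other members. These libraries share the contrast with and without Tet1CD, so the values describe it and carry no test.

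Of 10147 named genes, those most like Ezh2 were Sf3a2 (0.996), Rrs1 (0.988) and Sdad1 (0.982). Those most like Cbx2 were Atad5 (0.975), Hells (0.975) and Larp4 (0.973), and Suz12 was closest to Trnt1 (0.991). Jarid2 was closest to Upf1 (0.977), Cbx7 to Prr14l (0.967), Bmi1 to Dek (0.940) and Eed to Ap1s3 (0.927). Rnf2 was closest to Zcchc17 (0.893), Ezh1 to Atp2b4 (0.875) and Ring1 to Srrd (0.831), so the members with little change had no neighbour as close.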

How the data were processed

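Per the submitters' processing notes, Bowtie, RSEM and the mouse build mm10 were used, without versions. Normalization, gene filter and strand: not given in the sources used here. Each value is a score in the deposited tables, a whole number whose sorted list is nearly the same in all libraries of a table, so that the authors had normalized table by table. Each listed gene reached 32 in at least 2 libraries of its table. Identities and mm10 coordinates (counted from 1) are those of the deposited tables, set beside GENCODE M21 for the span of each gene.

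From these, log2(value + 5) was computed for genes whose mean reached 10. A fold change on that scale understates the change of low genes. The test was limma 3.58.1 in R 4.3.3 (empirical Bayes with an intensity trend) over all genes with Benjamini-Hochberg adjustment. The model over 14 SKOM libraries had additive terms for table, Tet1CD, Dnmt1, shDnmt1 and shp53 (8 residual degrees of freedom), the one with products of table and construct had 4, and each table alone had 2. MEF ratios and ratios across tables have no test. For counts at an unadjusted p the share of all genes is not given. The code was tested on simulated data. Alternatives were other pseudocounts, filters, no trend, joint quantile normalization, another MEF control and each library left out.

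The rule for the members uses their symbols and no value, but the members, lists and alternatives were chosen with earlier results of these data known. All 10 members are named, with up to 4 genes per list of the largest change past the threshold, and for each member the genes with the highest correlation; Phf19, Cdkn2a, Trp53, Dnmt1, Tet1 and the markers are named beside them. All columns were used.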

Additional observations from a re-analysis of the deposited data

Results flagged for a closer look

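Jarid2 was flagged because its Tet1CD effect differed between the media by a test of the difference itself. It was 1 of 10 members that passed, where 8.28% of all genes had a lower effect in Vc+ cells and 8.57% a higher one. The Jarid2 effect was -0.83 in Vc+ cells and -0.06 in Vc- cells on the log2 scale, a difference of -0.77 ± 0.16 in the limma model with products of table and construct (Benjamini-Hochberg adjusted p = 0.0121, 14 libraries). All 3 Vc+ libraries with Tet1CD, at 160 to 196, lay below all 4 without it, at 302 to 365, whereas the Vc- libraries overlapped. Over the alternatives the adjusted p ran from 0.0098 to 0.0561. The row of Jarid2 names a processed transcript over 1.1% of the span of the gene.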

How the results depend on the processing

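No paired analysis was possible because each group has 1 library and the labels give no replicate numbers; the construct terms of the models already set libraries with Tet1CD against those with the same other construct. In the model over 14 SKOM libraries, Ezh2, Suz12, Cbx2 and Cbx7 kept their fall with Tet1CD in all 14 fits with a library left out and in 7 other settings; 6 members fell in each of those 7. With products of table and construct Eed did not pass (adjusted p = 0.0506) and Bmi1 did (adjusted p = 0.0297). With each library left out, 4 to 7 members fell and 0 to 1 rose (Ezh1, without Vc+ Flag+shLuc or Vc+ Tet1CD). Over all genes 2011 to 2925 fell and 1690 to 2390 rose in those fits. For the difference between media 0 to 3 members passed. There 311 to 1173 of all genes had a lower effect in Vc+ cells and 450 to 1148 a higher one. In the Vc- libraries 0 to 3 members and 2 to 1202 of all genes fell. In the Vc+ libraries it was 1 to 6 members and 1049 to 2943 of all genes. For these results, leaving out either library of a pair that differs only by Tet1CD gives the same estimate. The shp53+shDnmt1 library is fitted by its own term, so leaving it out does not change the estimate. The fits with a library left out are therefore not all separate checks. With no intensity trend 0 members fell in the Vc- table (Ezh2 adjusted p = 0.0654), where 204 genes rose and 100 fell, against 777 and 791. Each library left out gave these ranges, which cross 0, for members that did not pass: for the difference between media Eed -0.0825 to 0.0951 and Ring1 -0.0977 to 0.26; in the Vc+ table Ezh1 -0.0065 to 0.17 and Ring1 -0.20 to 0.0567; in the Vc- table Bmi1 -0.16 to 0.00013, Jarid2 -0.21 to 0.0555, Ring1 -0.31 to 0.0177 and Rnf2 -0.11 to 0.071; Ring1 -0.21 to 0.0383 for Dnmt1; and Suz12 -0.16 to 0.0215 for shDnmt1. Rnf2 in the Vc- table was -6.1e-05 with a pseudocount of 1. In MEFs, set against MEF Dnmt1, 1 member was higher with Tet1-CD (Ezh1, 0.59), 0 higher with shDnmt1 and 0 lower with shp53, where Ring1 turned to -0.0208. With a pseudocount of 20, 0 members were higher with Dnmt1, 0 lower with shp53 and 1 higher with shp53+shDnmt1. With joint quantile normalization 1 was higher in 5C (Ring1). The causes were not tested. Without depth, no limit of detection can be given, and genes under the tables' filter are not seen.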
